A study of Mus musculus with 34 samples.

Results

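The isolated epithelium and the isolated stroma of the mouse cornea were each hybridised to 1 gene expression array: epithelium from animals at postnatal day 28 (P28) and stroma from animals at postnatal day 7 (P7). They were chosen by their sample labels and are 2 of the 34 arrays in the series, the other 32 being whole cornea at 12 ages from embryonic day 14.5 (E14.5) to 2 years. The series design text gives 1 time point for the layers, and the ages of the sample labels were followed. All mice were wild-type CB6 animals, and no group was treated. The epithelium was lifted from dissected corneas with the protease dispase II, while the stroma was cut by laser from frozen sections of whole eye globes, so the sections also held the tissues around the cornea. Age, layer and isolation method changed together between the arrays and cannot be told apart, and with 1 array per layer no test of a difference was possible. The labels do not say how many animals gave each RNA.

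The corneal epithelium is a stratified sheet whose surface cells seal the eye against the tear film. It builds its filaments from Krt12 and partner keratins and fills its cytoplasm with soluble enzymes, the corneal crystallins, such as Aldh3a1. The stroma beneath it is a stack of thin collagen fibrils laid down by keratocytes. Small leucine-rich proteoglycans such as keratocan (Kera) and lumican (Lum) coat the fibrils and set their diameter and spacing. Mouse eyelids are closed at P7 and open at P28, and keratocytes of young pups still build matrix.

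The 35557 probe sets gave 19938 genes with a single symbol, of which 11116 lay above the array's median on at least 1 of the 2 layer arrays and were counted. Values are the authors' intensities on a linear scale, and a difference is epithelium minus stroma of log2(intensity + 16). The offset of 16 understates the change of dim genes. A gene was counted as higher in a layer at a difference of at least 2, a 4-fold ratio. At this cut 65 genes were higher in the epithelium array, 0.585% of those counted, and 151 were higher in the stroma array, 1.36%. The median difference was 0.0034, and 91.6% of counted genes differed by less than 2-fold. As a yardstick from other arrays, pairs of whole-cornea arrays of one age held between 0.0671% and 0.45% of genes past 4-fold at P7 and P28, against 1.94% for the layer pair. The 1015 olfactory receptor genes, which neither layer is known to need, gave a background: their 95th percentile was 448 on the epithelium array and 384 on the stroma array. A value under it was not told apart from background, so a difference from such a value has only a lower bound. With every lower value raised to that percentile, 56 genes of the epithelium side and 81 of the stroma side still passed 4-fold, and folds given as "at least" were computed in that way.

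**Figure D1:**
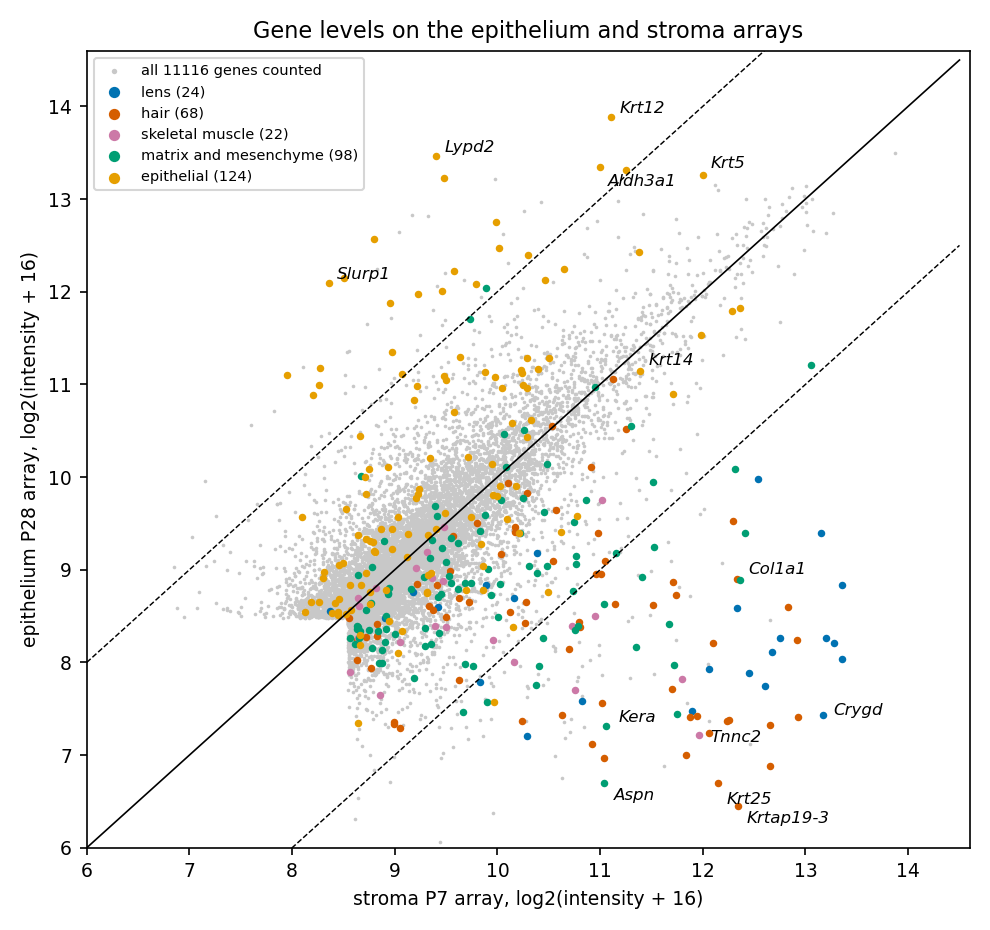
Each point is 1 of the 11116 genes counted, with log2(intensity + 16) on the stroma P7 array across and on the epithelium P28 array up; colours mark genes of 5 classes and dashed lines mark 4-fold differences. Krt12, Lypd2 and Slurp1 lie above the upper line, Crygd, Krt25, Tnnc2 and Kera below the lower line, and Krt14 between them.

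The arrays carried the defining genes of their labels, but unequally. All 10 of the epithelial markers Krt12, Krt5, Krt14, Krt15, Krt19, Krt13, Aldh3a1, Tkt, Cdh1 and Epcam lay above the olfactory receptor 95th percentile on both arrays. Their summed intensity was 52430 on the epithelium array and 20220 on the stroma array. Other keratins of the marker list were not in that sum. Of them Krt7, Krt4, Krt24, Krt76 and Krt23 were within the background on the epithelium array, at 425, 357, 207, 154 and 175. Krt23 read 984 on the stroma array, and Krt18 read 483 on the epithelium array and 640 there. Krt8 and Krt78 were above the background on both arrays. Of 9 keratocyte markers (Kera, Lum, Dcn, Col1a1, Col1a2, Col5a1, Vim, Cd34 and Ptgds), 9 were above that background on the stroma array and 5 on the epithelium array. Their sums were 27758 and 4311. Kera, Lum, Vim and Cd34 were within the background on the epithelium array, at 158, 143, 234 and 307. Genes of epithelium were thus also read on the stroma array, and their part in each stroma value was not tested. In such tissue samples, fewer cells of a type and less RNA per cell cannot be told apart.

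Of the 65 genes higher in the epithelium array, 22 belonged to the epithelial lists and 40 to no list class. Lypd2, a small Ly6-family protein, read 11267 on the epithelium array and 659 on the stroma array, 16.7-fold apart. Slurp1, a secreted Ly6 protein made by the corneal epithelium, read 4365 and 313. Psca, a membrane-anchored relative, read 4507 and 349. In the RefSeq gene order Lypd2 and Slurp1 are next to each other among the array's protein-coding genes, and Psca lies 2 places from Slurp1. The list of corneal crystallin enzymes and soluble products, which holds these 3 genes, had 21 counted members, of which 10 were at least 4-fold higher in the epithelium array and 0 in the stroma array. Its median difference was 1.59, or 1.42 over all 22 members with a probe set, against 0.0034 over all counted genes. A gene could be counted through the array where it was high, so medians over counted members describe those members only.

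The soluble enzymes differed less than Lypd2, Slurp1 and Psca. The Ly6 gene Ly6g6c read 5491 and 2642, and Ly6g6d went the other way at 512 and 912. Aldh3a1, the aldehyde dehydrogenase that makes up much of the soluble corneal protein and absorbs ultraviolet light, read 10387 on the epithelium array and 2028 on the stroma array. Gsta4, a glutathione transferase that clears lipid aldehydes, read 10130 and 2430. Tkt, the transketolase of the pentose phosphate pathway, read 5374 and 1247. Adh7, an alcohol dehydrogenase that also acts on retinol, read 2198 and 523. Those 4 differences lay between 2.04 and 2.35, and all 4 genes were above the olfactory receptor background on the stroma array too. The water channel Aqp5 read 3762 and 479, a difference of 2.93. Its relative Aqp3 read 2234 and 928, short of 4-fold at 1.25. A pair of lipid-handling genes outside that list were also near the top: Ptgr1, which reduces prostaglandin and leukotriene products, read 9486 and 993, and the fatty acid hydroxylase Cyp4a12b read 7239 and 561. Cyp4a12a, a near-identical copy, read 2312 and 260, and probe sets may share signal between the pair.

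Of 6 counted membrane serine proteases of the Tmprss11 family, 5 were at least 4-fold higher in the epithelium array. Tmprss11a read 6052 against 428, Tmprss11d 2188 against 232, and Tmprss11b 2304 against 293. Tmprss11g read 4017 against 583 and Tmprss11e 1870 against 279. The sixth, Tmprss11f, read 386 and 275, within the olfactory receptor background on both arrays. The genes form 1 tandem cluster, in which Tmprss11d, Tmprss11a and Tmprss11g are consecutive. The remaining epithelial proteases and inhibitors did not pass 4-fold. Serpinb5, an intracellular serpin, read 2215 and 1190, and the kallikrein Klk7, a protease of shedding skin cells, read 751 and 1736.

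Krt12 and the Krt6 pair differed far more than the keratins of basal cells. Krt12, the keratin specific to corneal epithelium, read 15153 on the epithelium array and 2185 on the stroma array. Krt6b and Krt6a, keratins of suprabasal and stressed epithelium, read 9565 against 696 and 5649 against 1019. They did not stand for their list, whose 6 counted members had a median of -0.29. Krt17 (661 and 1559) and Krt1 (559 and 1932) went the other way, and Krt80 read 920 and 587. Krt16 was within the olfactory receptor background on both arrays, at 236 and 301. The basal keratins were closer: Krt5 read 9817 and 4078, Krt14 2244 and 2673, and Krt15, a marker of limbal and basal cells, 2950 and 4028. Of 12 counted corneal and basal keratins, 1 was 4-fold higher in the epithelium array (Krt12) and 1 in the stroma array (Krt23, 175 and 984), with a median of -0.02. Krt10, the keratin of cornifying skin, went the other way at 344 on the epithelium array and 2531 on the stroma array.

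The lists of adhesion and surface genes each held 0 to 2 members 4-fold higher in the epithelium array. Over all counted genes that share was 0.585%, and 1.36% were 4-fold higher in the stroma array. Among 23 counted desmosome and cornified envelope genes, the desmosomal cadherins Dsc2 (4442 and 800) and Dsg3 (3306 and 705) were 4-fold higher in the epithelium array. Dsp, the plaque protein desmoplakin, read 7313 and 2721. A pair of skin-type members were 4-fold higher in the stroma array. Sprr1a, a cornified envelope precursor, read 337 on the epithelium array and 6436 on the stroma array, at least 13.9-fold higher there. Krtdap read 201 and 1381, at least 3.01-fold higher. The tight junction gene Cldn7 was the single 4-fold member of 18 junction genes, at 2589 and 487. The mucins Muc4 (4097 and 687) and Muc15 (2028 and 290) passed 4-fold, while Muc1 (355 and 320) and Muc16 (141 and 123) were within the olfactory receptor background on both arrays. Of 18 hemidesmosome and basement membrane genes none passed 4-fold, and the largest were the anchoring chain Lama3 (2008 and 577) and the integrin Itga6 (2169 and 700).

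Of 21 counted epithelial transcription factors, 1 passed 4-fold. Ehf, an Ets factor of differentiating epithelia, read 4331 and 871. Pax6, the master regulator of eye development, read 4450 and 1395, a difference of 1.66, and it is also made by lens. Klf4 read 1087 and 474, Klf5 1652 and 749, Elf3 747 and 258, and Trp63, which maintains basal cells, 2477 and 1431. These 4 differed in the same direction by between 0.78 and 1.48. Tfap2b went the other way (845 and 1841), and Ovol1 read 258, within the background, and 508.

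**Figure D2:**
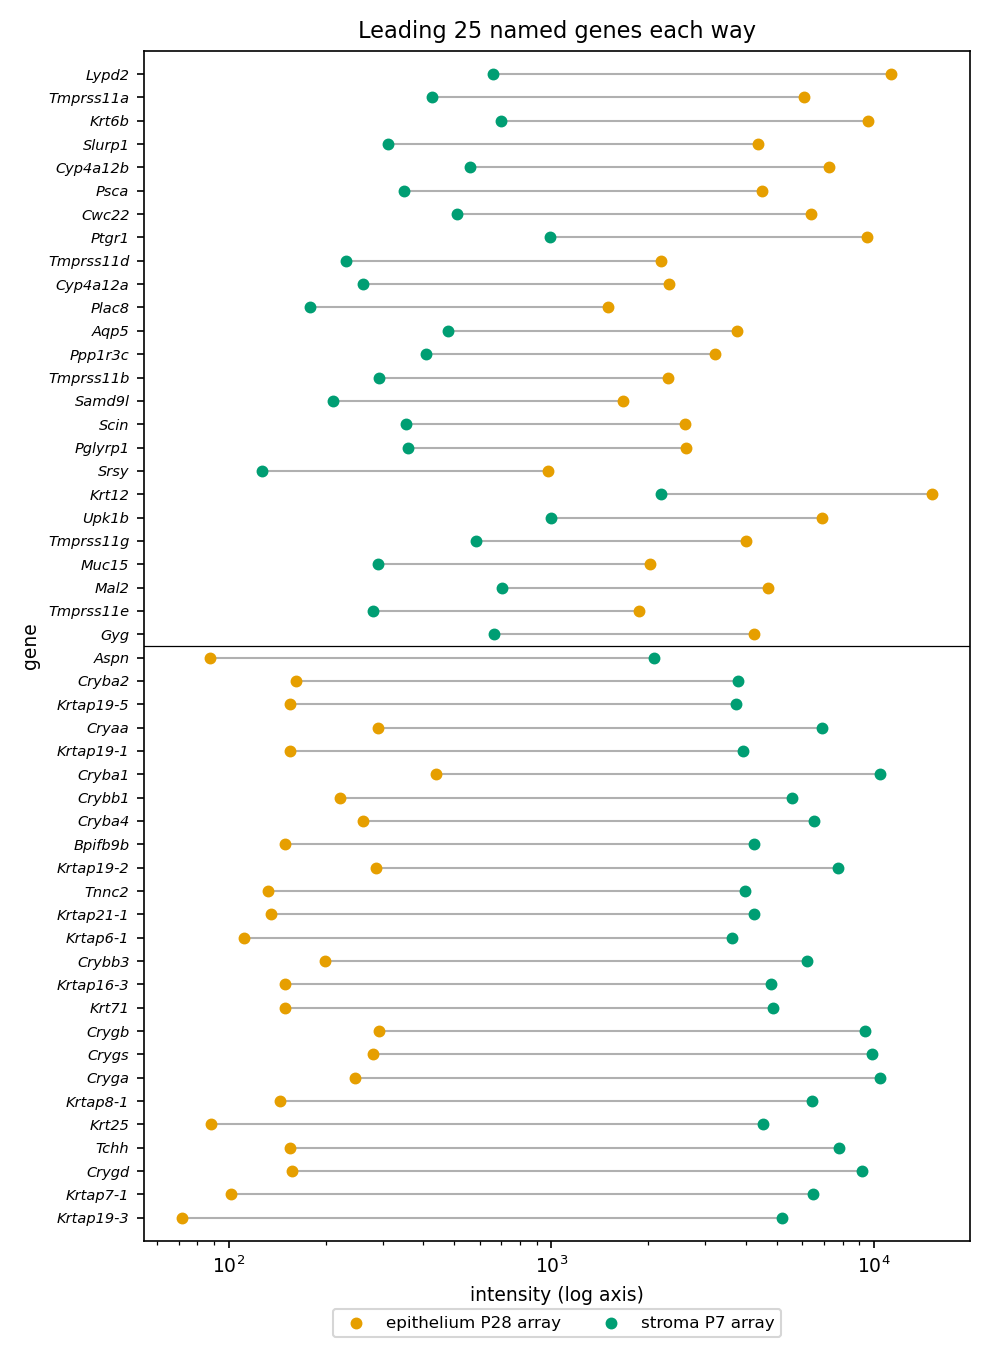
Intensity on a log axis of the 25 named genes that lead each direction; orange points are the epithelium P28 array, green points the stroma P7 array, and a line joins the values of 1 gene. Lypd2 leads the upper block at 11267 and 659, and 23 of the lower 25 are lens, hair or muscle genes.

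The stretches just upstream of 4 genes are shown as examples of different groups: Krt12 for the epithelium, Kera for the stromal matrix, Krt25 for hair and Crygd for lens. Of these only Crygd had the largest difference of its group. These stretches are the 80 bases before the RefSeq start in build GRCm38.p6, read 5′ to 3′ along the gene. The positions are chr11:99422260-99422339 on the minus strand for Krt12, chr10:97607125-97607204 on the plus strand for Kera, chr11:99322952-99323031 on the minus strand for Krt25, and chr1:65063441-65063520 on the minus strand for Crygd. Capitals mark TATAAA, the TATA box core that positions transcription starts, searched on both strands.
Krt12: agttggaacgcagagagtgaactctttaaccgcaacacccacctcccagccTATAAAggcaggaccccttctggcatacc
Kera: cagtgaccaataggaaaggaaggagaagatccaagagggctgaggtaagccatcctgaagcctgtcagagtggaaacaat
Krt25: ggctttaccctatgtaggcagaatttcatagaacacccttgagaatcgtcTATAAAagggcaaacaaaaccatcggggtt
Crygd: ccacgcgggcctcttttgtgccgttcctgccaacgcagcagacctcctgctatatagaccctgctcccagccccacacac
TATAAA began 29 bases before the start of Krt12 and 30 bases before that of Krt25, and these letters are not in the windows of Kera and Crygd. Over the 250 bases before the start, TATAAA on either strand was found for 14.3% of the 27025 genes in the promoter table. Among the 8858 counted genes with an entry, from which the called genes come, it was 9.38%. The share was 20% of the 45 epithelium-high genes with an entry and 39.2% of the 125 stroma-high genes with one. Within the stroma-high genes it was 52% of 50 lens, hair and muscle genes and 30.7% of the other 75. In the 20 bases from 40 to 21 before the start, on the gene's own strand, it was found for 2.25% of all genes and 2.21% of counted genes. The shares were 13.3% of the epithelium-high genes and 20.8% of the stroma-high genes. Members of tandem families share sequence, so these are counts of letters and not independent cases.

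Among genes higher in the stroma array, 19 belonged to the lists of stromal matrix and mesenchyme. Kera read 3433 on the stroma array and 158 on the epithelium array, at least 7.43-fold higher. Lum, the second keratan sulfate proteoglycan of the cornea, read 2109 and 143. Aspn, asporin, which binds collagen and TGF-beta, read 2082 and 87.8, at least 4.52-fold higher. Dcn, decorin, read 5089 on the stroma array and 1070 on the epithelium array. Bgn, biglycan, read 1713 and 311. Of 8 counted small leucine-rich proteoglycans these 5 passed 4-fold and the median difference was -2.32, while over all 13 members with a probe set it was -0.82. Fmod and Ogn read 1173 and 771 on the stroma array, less than 2-fold above the epithelium array. Epyc, Omd and Podn were within the olfactory receptor background on both. Dcn, Lum and Kera are consecutive in the RefSeq order, with Epyc the next gene on the far side of Kera.

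All but 1 of the 20 counted fibrillar and fibril-associated collagens read higher on the stroma array, and 5 passed 4-fold. Over 41 counted collagen genes of every kind the median difference was -0.23, and the same number passed. Col1a1 and Col1a2, the chains of collagen I that form most of the fibril, read 5261 and 5420 on the stroma array and 457 and 656 on the epithelium array. The filament-forming collagen VI chains Col6a1 (2590 and 272) and Col6a3 (3248 and 324) and the fibril-associated Col14a1 (1343 and 233) were the others. Col3a1 fell just short at 2263 and 564. Collagen V, which limits fibril diameter, differed less: Col5a1 read 1386 and 772, and Col5a2 1009 and 344. Col8a1, made by the corneal endothelium for its basement membrane, was level at 1966 and 2000.

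Genes that fold and link collagen followed with smaller differences. Lox, which crosslinks collagen and elastin, was the 1 member of 19 counted that passed 4-fold, at 794 on the stroma array and 161 on the epithelium array. Pcolce, which speeds removal of the procollagen tail, read 1321 and 483. P3h2, a prolyl hydroxylase that acts on basement membrane collagen, went the other way at 835 and 3328. Of 11 counted genes of keratan and other glycosaminoglycan synthesis none passed 4-fold. Chst14, a dermatan sulfate sulfotransferase, read 582 and 326, and Chst5 read 1161 and 728. Chst5 is the sulfotransferase needed for corneal keratan sulfate.

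The young matrix genes of the stroma array included 6 past 4-fold of 24 counted: Postn (2705 and 468), Thbs4 (2091 and 381), Mfap4 (1743 and 319), Vcan (937 and 174), Sparcl1 (2936 and 591) and Thbs2 (1377 and 292). Postn encodes periostin and Vcan versican, both abundant in growing connective tissue. Tgfbi, the secreted adhesion protein mutated in stromal corneal dystrophies, was the 1 member at least 4-fold higher in the epithelium array, at 4186 against 930. Mesenchymal cell markers past 4-fold were Vim (3365 and 234), the intermediate filament of mesenchyme and also of lens fibres, and Thy1 (1310 and 201). Imprinted growth genes had 4 past 4-fold of 20 counted and a median of -0.92. Peg3 read 2064 on the stroma array and 217 on the epithelium array, Meg3 3747 and 406, Plagl1 950 and 214, and the growth factor Ptn 2633 and 475. Igf2, a fetal growth factor, read 2335 and 586.

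**Figure D3:**
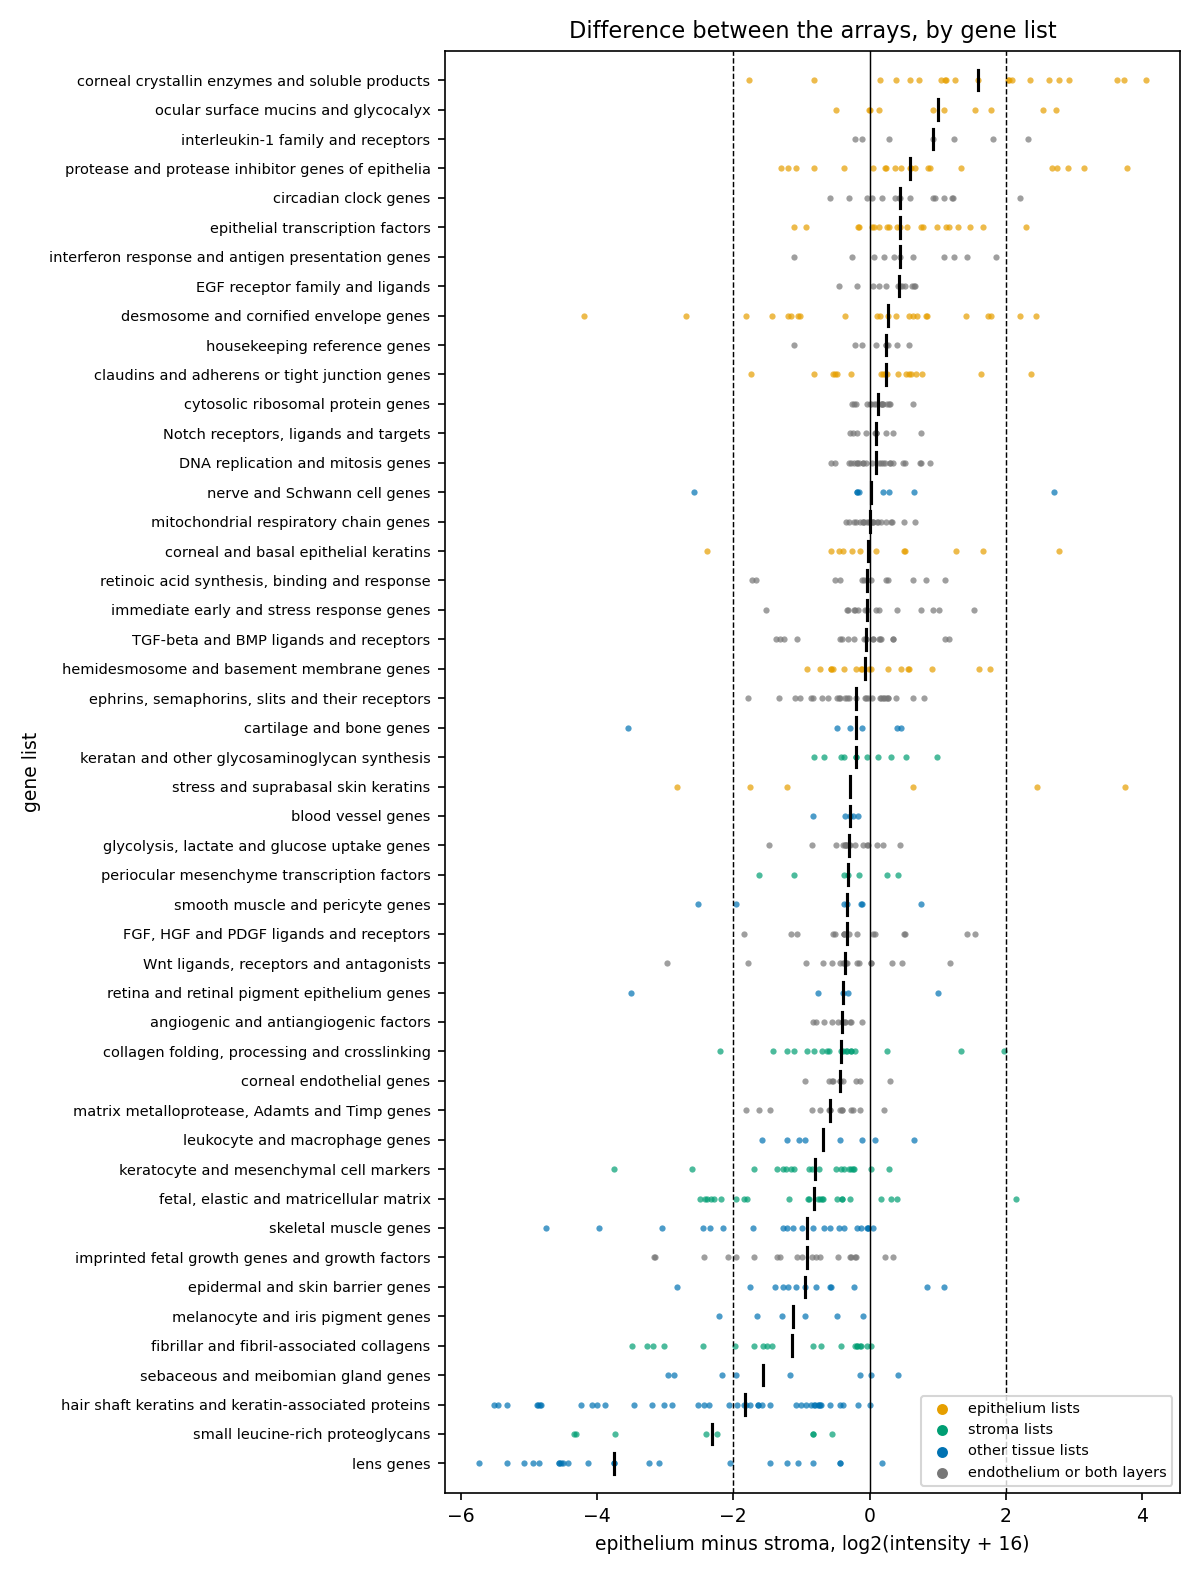
Difference between the arrays (epithelium minus stroma, log2(intensity + 16)) for counted members of each gene list with at least 5 of them; points are genes, black ticks are list medians and dashed lines mark 4-fold. Medians run from -3.75 for lens genes to 1.59 for corneal crystallin enzymes, with ribosomal protein genes near 0.

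Most of the leading differences on the stroma side were genes of lens, hair and skeletal muscle, named here as carryover, tissue captured or collected together with the stroma. They made up 54 of the 151 genes, 35.8%, and 23 of the 25 named genes with the largest difference. The exceptions among the 25 were Aspn and Bpifb9b. Without the genes classed by symbol or list to these 3 tissues 97 genes remained past 4-fold. These still hold Gm10229 and Gm10228, which lie within the cluster of keratin-associated proteins described below. The route by which this RNA reached the sample was not tested.

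The lens was represented by its fibre cell proteins. All 15 crystallin genes of the alpha, beta and gamma families that had a probe set were at least 4-fold higher in the stroma array, with a median of -4.52. Crygd, a gamma crystallin, read 9213 on the stroma array and 157 on the epithelium array, at least 19.9-fold higher. Cryba1 read 10462 and 440, and Cryga 10447 and 247. Cryaa, the lens chaperone, read 6898 and 291. The fibre membrane gene Lim2 (1232 and 131) and the beaded filament gene Bfsp2 (897 and 205) also passed, while the lens water channel Mip read 1325 and 565. Over 25 lens genes the summed intensity was 106704 on the stroma array and 7688 on the epithelium array, and 22 and 2 members were above the olfactory receptor background. Gamma crystallins are close paralogs and their probe sets may share signal.

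Hair genes came from both the inner root sheath and the shaft. Krt25 and Krt71, root sheath keratins, read 4523 and 4861 on the stroma array and 88.0 and 150 on the epithelium array. Tchh, trichohyalin of the root sheath and medulla, read 7787 and 154. Among keratin-associated proteins, which crosslink keratin in the shaft, 22 of 41 counted passed 4-fold. Krtap19-3 read 5173 against 71.5, at least 11.2-fold higher. Krtap7-1 read 6452 and 102. The cuticle gene Krt32 (382 and 287) and the shaft keratin Krt34 (1467 and 1482) did not differ by 2-fold. A tandem cluster accounted for 14 consecutive genes past 4-fold, running from Krtap14 through the Krtap19 and Krtap6 families. These families are near-identical copies, so single members are uncertain. Summed over 46 hair genes the intensity was 96442 on the stroma array and 17863 on the epithelium array, with 41 and 10 members above background.

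Of 22 counted skeletal muscle genes 6 passed 4-fold. Tnnc2, fast troponin C, read 3988 on the stroma array and 132 on the epithelium array, and Tnnt3, fast troponin T, 3538 and 210. Acta1, skeletal actin, read 1708 and 192, the fast light chain Mylpf 1962 and 346, and the perinatal myosin Myh8 1679 and 319. With titin (Ttn, 1129 and 242) these were the 6. The fast-fibre genes Myh2 (641 and 466) and Ckm (622 and 569) and the slow-fibre genes Tnni1 and Tnnt1 differed by less than 2-fold, and Myod1, the muscle lineage factor, was within the background on both arrays. The 27 genes summed to 26058 and 9421.

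Genes of other neighbouring tissues were fewer. Skin and lid gland genes past 4-fold, beside Sprr1a and Krtdap, were Krt10, Krt79, Scd1 (3474 and 434) and Elovl4 (1899 and 245). Scd1 and Elovl4 make the unusual fatty acids of gland lipid. Dct, a melanin enzyme, read 981 and 199, and Mlana, another pigment cell gene, 1498 and 465. Ttr, made by retinal and ciliary pigment epithelium, read 3414 and 288. It was the 1 gene past 4-fold of 5 counted retina and pigment epithelium genes. Rpe65 (126 and 107) and Rlbp1 (222 and 200) were within the background on both arrays, and Gnat1 went the other way (365 and 750). Ibsp, a bone matrix gene, read 1816 and 141, the 1 past 4-fold of 6 counted cartilage and bone genes. Acan (241 and 220) and Matn1 (174 and 193) of that list were within the background on both arrays. Of smooth muscle genes Acta2 passed (1332 and 219), and of nerve genes Tubb3, a tubulin of neurons (1765 and 282), while Mal2, a membrane traffic gene on that list, was higher on the epithelium array (4683 and 702). No vessel, leukocyte or corneal endothelial gene passed 4-fold. The endothelial pump genes Atp1b1 (2383 and 1224) and Slc4a11 (799 and 545) were somewhat higher on the stroma array.

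The carryover genes were compared with whole cornea only by position within each array, since the layer arrays have a higher floor. Here all keratin-associated proteins and crystallins were added to the hair and lens lists. Hair genes were above the array's own median for 68 of 74 on the stroma array and 34 on the epithelium array. On the 32 whole-cornea arrays the count lay between 21 and 30. Lens genes were above it for 23 of 26 on the stroma array, 10 on the epithelium array and 5 to 22 on the 32 whole-cornea arrays, with 7 or 8 on the 3 of P7. Muscle genes gave 22 of 27 on the stroma array, 10 on the epithelium array and 6 to 19 on the 32, with 7 or 8 at P7. Tchh, Krt25 and Krt71 were above the median on 0 of the 32 whole-cornea arrays. Lens and muscle genes differed from these: Crybb3 was above it on 32, Cryaa and Crybb1 on 30 and Tnnc2 on 16. Of whole-cornea arrays at P28, replicate 2 had 19 lens genes above its median and the others 14 and 15, so lens genes also varied between dissected corneas.

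**Figure D4:**
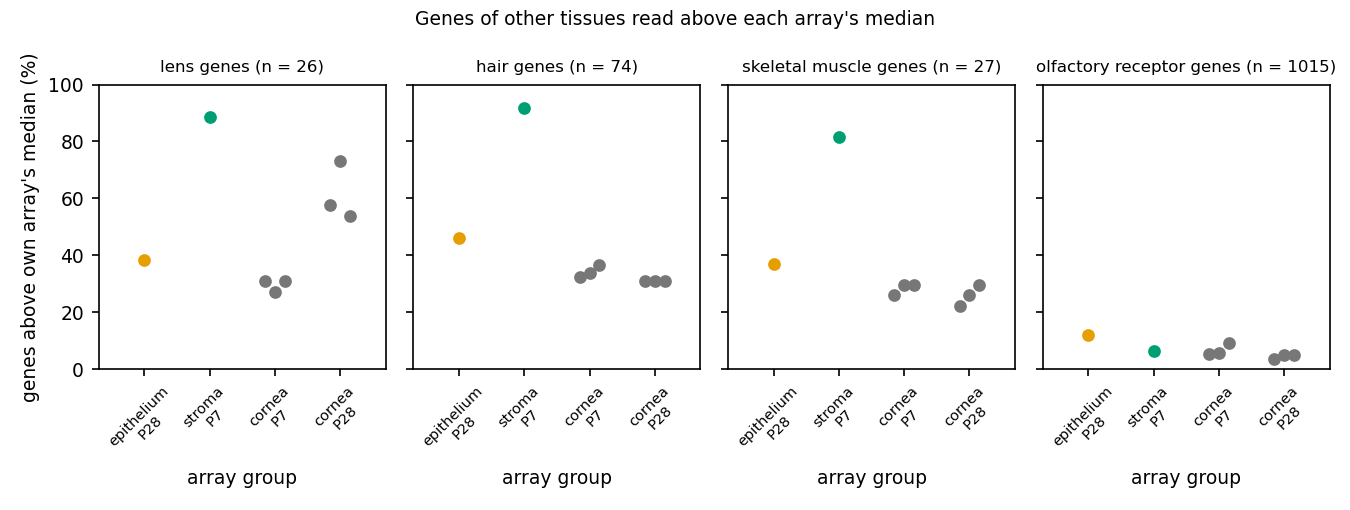
Percent of lens, hair, skeletal muscle and olfactory receptor genes above their own array's median; each point is 1 array, orange for epithelium P28, green for stroma P7 and grey for the 3 whole-cornea arrays of P7 and of P28. Among these arrays the stroma array is highest for the 3 tissues, at 88.5%, 91.9% and 81.5%, and at 6.21% for olfactory receptors.

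Most general cell programmes were level, but so were most genes, since 91.6% of all counted genes differed by less than 2-fold. Lists with none past 2-fold are therefore not read as a result about their members. All 23 mitochondrial respiratory chain genes lay between -0.35 and 0.67, and all 16 ribosomal protein genes between -0.26 and 0.63. Of 24 counted replication and mitosis genes none differed by 2-fold. Mki67, a marker of dividing cells, read 722 on the epithelium array and 1030 on the stroma array. None of the 11 counted Notch genes or 12 EGF receptor family genes differed by 2-fold. Of 15 counted circadian clock genes, 4 were at least 2-fold higher in the epithelium array, and the list's median was 0.45. Hlf read 5065 on the epithelium array and 1086 on the stroma array. Nr1d1 and Nr1d2, the repressors of the clock loop, read 1720 against 732 and 2051 against 864. The collection hour is not in the labels. Of the interleukin-1 family, Il1a, stored by surface epithelia, read 637 and 114 and Il18 read 1094 and 301. Signalling genes on the stroma side were the Wnt antagonist Sfrp4 (1734 and 207) past 4-fold, the ligands Pdgfc (752 and 198) and Bmp4 (615 and 227), and the guidance factor Sema3c (913 and 255). The Wnt antagonist Sfrp1 was higher on the epithelium array at 3138 and 1370.

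The age gap between the layer arrays was set beside whole cornea, where P28 and P7 have 3 arrays each. In a limma fit over the 32 whole-cornea arrays, with p-values adjusted by the Benjamini-Hochberg method over 12994 genes, 772 genes were higher at P28 (5.94%) and 592 lower (4.56%) at an adjusted p under 0.05 and a log2 difference of at least 1. After quantile normalization the split was 483 higher and 621 lower. Whether the 3 arrays of an age are 3 animals is not in the labels, so these p-values measure only the spread between arrays, which may be technical. P7 and P28 also lie on different sides of a split in 8 unnamed probe sets that separates all arrays up to P14 from all later ones, so age and array set cannot be told apart.

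Of the 65 epithelium-high genes 64 were tested in whole cornea, and 50 rose from P7 to P28 while 0 fell. The shares over all genes tested were 5.94% and 4.56%. The median change of the 64 was 1.52, against 0.09 over all genes tested. After quantile normalization 38 rose. Slurp1 read 245, 411 and 214 on the P7 arrays and 7757, 7491 and 7641 on the P28 arrays. The groups did not overlap, and the change was 4.70 ± 0.46 (SE of the limma fit, adjusted p = 6e-08). Aqp5 read 542, 421 and 495 at P7 and 4438, 4378 and 4428 at P28, a change of 3.15 ± 0.30 (limma adjusted p = 4.18e-08). Lypd2 rose by 1.79 ± 0.26, from 2719, 4830 and 3491 to 12512, 12698 and 12041. Psca varied most among replicates, with 97.3, 249 and 1517 at P7 and 8944, 8896 and 3682 at P28. Krt12 was already bright at P7, at 9058, 10419 and 6793, and read 14553, 14744 and 15805 at P28. Its change of 0.80 ± 0.19 and that of Aldh3a1, 0.98 ± 0.18, passed the adjusted p of limma (0.0017 and 0.00021) but not the size required.

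The stroma-high genes divided in whole cornea. Of 151 genes 117 were tested, and 40 fell while 4 rose (Scd1, Krt23, Car6 and Cst6). Over all genes tested 4.56% fell and 5.94% rose. All 40 that fell were outside the lens, hair and muscle genes, of which 34 were tested and none passed in either direction. Of the 17 lens genes, 16 still had a change above 0, with a median of 1.17 against 0.09 over all genes tested. Only 11 of the 31 hair genes were tested. The fibril and growth genes were lower at P28. Col1a1 read 6159, 2532 and 6667 at P7 and 1138, 768 and 1292 at P28, with no overlap and a change of -2.16 ± 0.39 (limma adjusted p = 0.00013). Meg3 fell by 2.54 and Peg3 by 2.37. Aspn read 1136, 886 and 479 at P7 and 418, 123 and 64.3 at P28. Among 12 small leucine-rich proteoglycans tested 5 fell, with a median change of -0.87. Kera, Lum and Dcn changed less than Col1a1. Kera read 8622, 6325 and 6978 at P7 and 4007, 5587 and 4708 at P28, a change of -0.62 ± 0.57 (limma adjusted p = 0.44). Lum read 7286, 5746 and 6632 at P7 and 2460, 2828 and 2607 at P28. It changed by -1.31 ± 0.57 (limma adjusted p = 0.076) and Dcn by -0.42 ± 0.41 (limma adjusted p = 0.47), neither past the threshold. For Kera, Lum and Dcn the P7 and P28 arrays did not overlap. The share of all genes tested without overlap was not counted, so this does not add to the limma results. Crygd read 99.8, 86.0 and 84.7 at P7 and 423, 3794 and 352 at P28, where replicate 2 stood apart.

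By list, 12 of 20 collagens, 13 of 20 collagen processing genes, 14 of 25 young matrix genes and 13 of 20 imprinted growth genes fell in whole cornea. So did 9 of 20 keratocyte and mesenchymal markers, 5 of 12 small leucine-rich proteoglycans and 6 of 10 corneal endothelial genes. Over all genes tested 4.56% fell and 5.94% rose. Of the epithelial lists, 13 of 22 crystallin enzymes and soluble products, 15 of 21 proteases and inhibitors and 11 of 22 transcription factors rose. Of 12 tested corneal and basal keratins, 2 rose and 4 fell.

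Across all 12 ages the epithelium-high genes had their lowest median at E14.5, 3.60 log2 below the gene means, and their highest at 18 months, 1.74 above. The stroma-high genes outside lens, hair and muscle had their highest median at E17.5, 1.41 above the gene means, and their lowest at 18 months, 1.89 below. Within the array set up to P14, the epithelium-high median went from -1.10 at P3 to 0.08 at P7 and 0.49 at P14, and the other from 1.11 to 0.55 and 0.48. Of P14 against P7 no gene was called by limma, at 819 genes with an unadjusted p under 0.05. The median of 17 lens genes varied between arrays of one age, from -1.12 to 2.93 at P14.

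**Figure D5:**
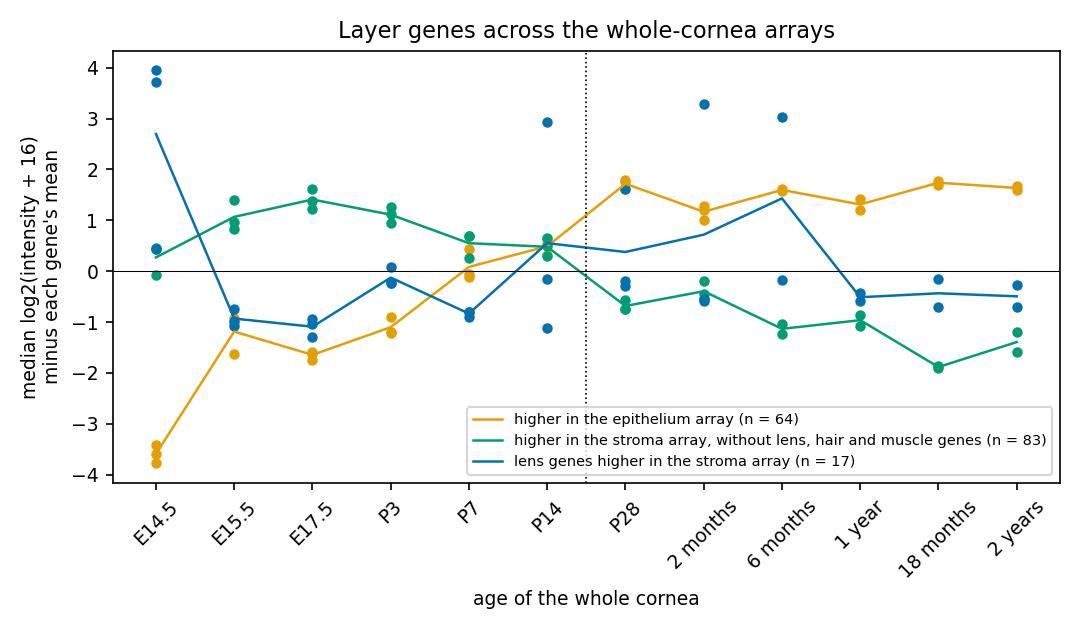
Median over genes of log2(intensity + 16) minus each gene's own mean, for each whole-cornea array by age; points are arrays, lines join age means, and the dotted line separates the arrays split by unnamed probe sets. The 64 epithelium-high genes go from -3.60 at E14.5 to 1.72 at P28, the 83 stroma-high genes from 1.41 at E17.5 to -0.68 at P28, and the 17 lens genes scatter within ages.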

How the data were processed

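RNA was amplified and hybridised to Affymetrix gene arrays, per the labels' protocols. The authors deposited a linear intensity for each probe set on each array. The submitters' processing notes name Affymetrix Expression Console 1.1 with PLIER, and the array annotation's genome build is not given in the sources used here. Intensities were used as deposited, as log2(intensity + 16). Symbols came from the platform annotation supplied with the table: 21789 probe sets had 1 symbol, 1621 several and 12147 none. A gene took its values from whichever of its probe sets had the highest mean log2 value. Of the 5 called genes with several probe sets, Cwc22, Srsy, Mdga2 and Nova1 had all of them on one side and Mapk10 did not, and none had all past 4-fold.

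The layer arrays were compared with each other only, without a test. The 51 gene lists hold 1025 entries, and 930 genes had a probe set; members and lists were chosen with earlier results of these data known. The text names the 25 genes with the largest difference each way, leaving out symbols of unnamed transcripts, and list members; others are said to be chosen after their values were seen. Car6, Cst6, Gm10229 and Gm10228 lie outside that rule and are named to complete or qualify a count.

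Whole-cornea ages were fitted with limma 3.58.1 in R 4.3.3, 1 mean per age, for genes above the array median on at least 2 arrays, two-sided. Scripts used Python 3.11.15, pandas 2.3.3 and numpy 2.4.6 and were tested on simulated data. With 1 array per layer and 2 or 3 per age, the number of arrays limits the precision.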

Additional observations from a re-analysis of the deposited data

How the results depend on the processing

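The 4-fold counts of 65 and 151 genes stayed within 1.5 times under offsets of 1 and 64, no filter, quantile normalization, centring on the median, the mean over probe sets and, chosen after seeing the data, a filter at the olfactory receptor 95th percentile. They became 433 and 506 at 2-fold and 12 and 69 at 8-fold. Requiring both arrays above their median left 45 epithelium-high genes but 33 stroma-high genes, since most stroma-high genes were dim on the epithelium array. Leaving out lens, hair and muscle genes, also chosen after seeing the data, gave 97. Raising values under the olfactory receptor 95th percentile to it, likewise chosen afterwards, gave 56 and 81. No named difference changed sign; 17 of 50 moved by more than the whole-cornea spread with an offset of 64 and 1 with the mean over probe sets.

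In whole cornea the 772 higher genes became 483 after quantile normalization, whose cause was not tested. Leaving out each P7 or P28 array gave 651 to 981 higher and 496 to 675 lower genes, and 42 to 54 of the epithelium-high and 37 to 41 of the stroma-high genes. P14 against P7, chosen after seeing the data, gave 0 higher and 0 lower genes by limma, hence 0 and 0 of the layer genes, with 819 genes at an unadjusted p under 0.05. With the replicate block 770 genes were higher and 590 lower, and 50 and 39 of the layer genes. Whether the replicate numbers pair arrays across ages is not in the labels. Same-numbered P7 and P28 arrays correlated at 0.036, 0.25 and 0.089 in their deviations. Arrays of different number were not compared, so these values cannot decide it.

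One array per layer gives no replicate error, so a layer value cannot be separated from its sample. Values within the olfactory receptor background cannot be ordered.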

Other observations

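Genes outside the lists also led the stroma array, and were chosen after their values were seen. Bpifb9b and Bpifb9a, secreted lipid-binding proteins of the BPI fold family, read 4244 and 1745 on the stroma array and 150 and 213 on the epithelium array. Scgb1c1, a secretoglobin, read 1566 and 92.0, the carbonic anhydrase Car6 2455 and 333, and the cytochrome Cyp2g1 1051 and 223. Bpifb9b was above the array's median on 4 of 32 whole-cornea arrays. The growth and membrane genes of neurons Stmn2 (976 and 66.8), Gap43 (2881 and 493), Syt1 (915 and 132) and Snap25 (2332 and 567) were also higher on the stroma array. Gap43 fell by 2.73 from P7 to P28 in whole cornea (limma adjusted p = 2.1e-05), and Tac1, a sensory neuropeptide, fell by 4.15 (limma adjusted p = 3.42e-07). Fabp7, a fatty acid binding protein of glia, read 3664 and 173.

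Cwc22, a splicing factor, stood among the genes highest in the epithelium array by 7 probe sets that hold the same values, 6400 on the epithelium array and 511 on the stroma array. The eighth probe set read 1412 and 524. On the 32 whole-cornea arrays, not set on the same scale, those 7 ran from 256 to 1120.

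Both layer arrays read low for Xist (187 and 169) and clearly above the olfactory receptor background for the Y-linked Eif2s3y (1232 and 1299). Of the 8 unnamed probe sets that split the whole-cornea arrays at P14, 7 were measured on the layer arrays and read 129 to 186 on the epithelium and 127 to 183 on the stroma array.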
